A study of Ovis aries with 36 samples.

Results

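The genes described here are 203 transcripts of the sheep infraspinatus muscle that were higher after release of its tendon and also higher, 6 weeks after the tendon was reattached, on the operated side than on the other side. The infraspinatus is a muscle of the rotator cuff. When its tendon is released the muscle is unloaded; it shortens, loses fibre mass and gains fat and connective tissue, and these changes are known to persist in part after the tendon is reattached. Nandrolone decanoate is an anabolic steroid that acts through the androgen receptor.

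All animals were female Swiss Alpine sheep, 2 years old, and every arm underwent release of the infraspinatus tendon and, 16 weeks later, its repair. The arm N22W received 150 mg of nandrolone decanoate each week for 22 weeks from release on. The arm N6W received the same weekly dose by intramuscular injection for 6 weeks from repair on and was without drug during release. The CONTROL arm had both operations without the drug. The design had 18 sheep, 6 in each arm, and 9 of them, 3 in each arm, are analysed here, each with 4 libraries of ribosome-depleted total RNA. PRE is the operated muscle before release, TR the same muscle at repair after 16 weeks of release, END the same muscle 6 weeks after repair, and END-CC the contralateral infraspinatus at that last occasion. The contralateral side was not sampled at TR in these libraries, so release and the passing of 16 weeks cannot be told apart in TR against PRE, and no animal had a sham operation in these labels.

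Members were chosen on the deposited values, scaled by 1 factor per library whose kind is not stated. They were transformed to log2(value + 1), the scale of every difference below unless said otherwise. A member had a mean difference TR minus PRE of at least 1 over the 9 animals and a mean difference END minus END-CC of at least 0.8 over the same animals. It also had a value above 1 in all 36 libraries and a median of 10 to 10000 over them. Of 25197 genes in the files, 12404 met the limits on level and 203 of these met both limits on change. A further 215 genes met the limits on change but failed those on level, 199 of them through a value of 1 or less in some library, so the members are not all genes with this pattern. The difference TR minus PRE is called the release change and END minus END-CC the side difference. Both chose the members and are given as descriptions, without a test.

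The files identify genes by Ensembl sheep identifiers alone. A reference table of 35057 genes matched 0 of the 25197 identifiers, so no role is given to any member, no sequence is shown and the muscle could not be checked against marker genes. As the samples are whole biopsies, more cells of a type and more RNA per cell cannot be told apart in any value below.

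Depth and library sets touch all values. The libraries held 11879758 to 43065620 reads in genes, recovered from the scaled values, and 15433 to 18571 genes above 0. The 12 PRE and TR libraries of N22W and CONTROL stood apart from the other 24 libraries: 591 genes were more than 8-fold higher in every one of the 12 than in any of the 24. None of the 203 members was among these 591 (0 members), which were counted over all 25197 genes. Members needed a value above 1 in all 36 libraries, which by itself leaves out genes absent from the 24. Nothing is therefore read from this count, and smaller differences between the sets were not counted. The release change and the side difference each compare libraries within one of these sets, whereas TR against END crosses them in N22W and CONTROL. The course from TR to END is therefore given in N6W alone, and PRE or TR levels of N6W are not set against those of the other arms.

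Both limits were met together by 1.64% of the 12404 genes within the limits on level. Taken singly, the release limit was met by 303 genes (2.44%) and the side limit by 601 genes (4.85%). The 203 members were thus 67.0% of the genes past the release limit and 33.8% of those past the side limit. The opposite pattern, lower by the same amounts in both contrasts, was held by 20 genes. Among the 100 genes past the release limit but not the side limit, the median release change was 1.21 and the median side difference 0.51, with 87 of 100 above 0. Among the 398 genes past the side limit but not the release limit, the median release change was 0.55, with 355 of 398 above 0. No gap set the members off from the genes just outside the limits. The member nearest to the release limit had a release change of 1.0046 and the nearest gene outside had 0.997; at the side limit these values were 0.8111 inside and 0.7979 outside.

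**Figure D1:**
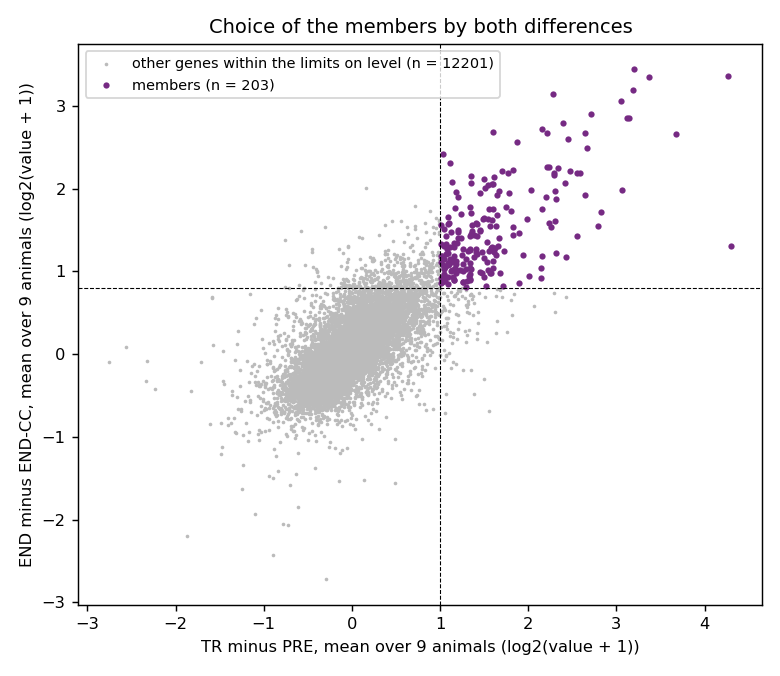
Mean release change (TR minus PRE, horizontal) against mean side difference (END minus END-CC, vertical) over 9 animals on the log2(value + 1) scale, 1 point per gene within the limits on level; dashed lines are the limits of 1 and 0.8. The 203 members (purple) continue the cloud of the other genes up to 4.30 in release change and 3.44 in side difference.

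The members were mostly of low to moderate level. Their medians over the 36 libraries ran from 10.1 to 4828 with a middle value of 47.3, against 165 for all genes within the limits on level. A median under 100 was found for 136 members, 67.0% of them, against 37.2% of the genes within the limits on level. Another 61 members had medians of 100 to 1000 and 6 had 1000 or more. These values are not divided by transcript length, so levels are not compared between single genes.

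The median release change of the members was 1.45 and their median side difference 1.36. A release change of at least 2, a 4-fold difference, was reached by 45 members, a side difference of that size by 41, and both by 25. Both differences were at least 3, or 8-fold, in 5 members. The side difference was larger than the release change in 87 members and smaller in 116, with a median gap of -0.08. It was at least 1 below the release change in 12 members and at least 1 above it in 3. Across the 203 members the 2 differences went together with Pearson's r = 0.65 and Spearman's rho = 0.55. These are given as a description, since both come from the same 9 animals and the limits cut off the lower part of each.

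ENSOARG00000020509 had the largest mean side difference, 3.44 ± 1.25 (SD, n = 9 animals), and a release change of 3.20 ± 1.03. Its values at TR were 4415, 3251 and 15790 in N22W, 7309, 8281 and 10580 in N6W, and 10720, 13820 and 8015 in CONTROL. At PRE they were 809.9, 1255 and 643.0 in N22W, 1183, 892.3 and 413.5 in N6W, and 1125, 1554 and 713.0 in CONTROL. Within each arm every TR value lay above every PRE value. At END its values were 3761, 4677 and 5523 in N22W, 6964, 2416 and 18400 in N6W, and 17510, 14560 and 8468 in CONTROL. At END-CC they were 845.8, 421.8 and 187.4 in N22W, 913.6, 793.6 and 358.9 in N6W, and 1904, 1239 and 745.4 in CONTROL. Again no END value fell within the END-CC range, although the N6W animal 2908 came close with 2416 against the highest END-CC value of 1904.

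ENSOARG00000012921 was second in both differences, with a release change of 4.27 ± 1.29 and a side difference of 3.36 ± 1.19 (SD, n = 9 animals). Its values at TR were 245.6, 319.5 and 1295 in N22W, 361.7, 429.1 and 256.8 in N6W, and 241.9, 406.8 and 168.5 in CONTROL. At PRE they were 14.74, 19.97 and 7.91 in N22W, 17.1, 19.6 and 6.46 in N6W, and 19.6, 54.2 and 19.6 in CONTROL. Within each arm the TR and PRE ranges did not overlap. At END its values were 405.1, 558.6 and 516.6 in N22W, 527.8, 158.7 and 1104 in N6W, and 414.9, 619.4 and 191.3 in CONTROL. At END-CC they were 71.9, 46.0 and 19.5 in N22W, 85.3, 81.7 and 39.4 in N6W, and 37.1, 39.3 and 13.1 in CONTROL. The lowest END value again belonged to animal 2908, whose own side difference was 0.95.

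ENSOARG00000004606 had the largest mean release change, 4.30, and also the largest spread over animals, with an SD of 3.67. Its release change was 8.23, 7.61 and 5.95 in the N22W animals, 1.51, -1.69 and 5.72 in the N6W animals and 8.29, 0.61 and 2.50 in the CONTROL animals. PRE values of this gene were 5.27, 3.52 and 2.26 in N22W, 2.70, 182.6 and 4.85 in N6W and 1.09, 241.0 and 93.3 in CONTROL. At PRE 1 read had a value of 1.09 in the CONTROL animal 2901, and of 1.17 and 1.13 in the N22W animals 2914 and 2915. The largest release changes thus started from a few reads and depend on the 1 added before the log. As PRE is subtracted in the release change, no link between the PRE level and the change is read from these values. Its side difference averaged 1.30 ± 2.99 (SD, n = 9 animals) and was below 0 in the N6W animal 2908 (-2.79) and the CONTROL animal 2903 (-3.52). The gene met the limits by its mean while its animals disagreed in sign.

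ENSOARG00000016802 was the steadiest member over release. Its release change averaged 1.10 ± 0.30 and its side difference 1.09 ± 0.48 (SD, n = 9 animals). Its values at TR were 136.7, 168.6 and 261.1 in N22W, 176.7, 202.4 and 195.4 in N6W, and 178.9, 268.3 and 217.4 in CONTROL. The PRE values were 77.9, 90.5 and 105.1 in N22W, 85.4, 75.7 and 61.4 in N6W, and 85.2, 141.6 and 125.2 in CONTROL. Within each arm the TR and PRE ranges did not overlap. At END the lowest, median and highest values over the 9 animals were 117.7, 175.4 and 244.1, against 59.8, 78.8 and 109.1 at END-CC. The END and END-CC ranges did not overlap.

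ENSOARG00000001508 was the member with the highest median value, 4828. Its values at TR were 40960, 8233 and 16530 in N22W, 2498, 2398 and 7316 in N6W, and 13400, 12540 and 58340 in CONTROL. At PRE they were 4810, 4708 and 3105 in N22W, 5297, 3324 and 3432 in N6W, and 3132, 3989 and 6682 in CONTROL. The release change was above 0 in every N22W and CONTROL animal and in 1 of the 3 N6W animals, with -1.08 and -0.47 in the others. The side difference was above 0 in all 9 animals, from 0.247 to 2.298.

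**Figure D2:**
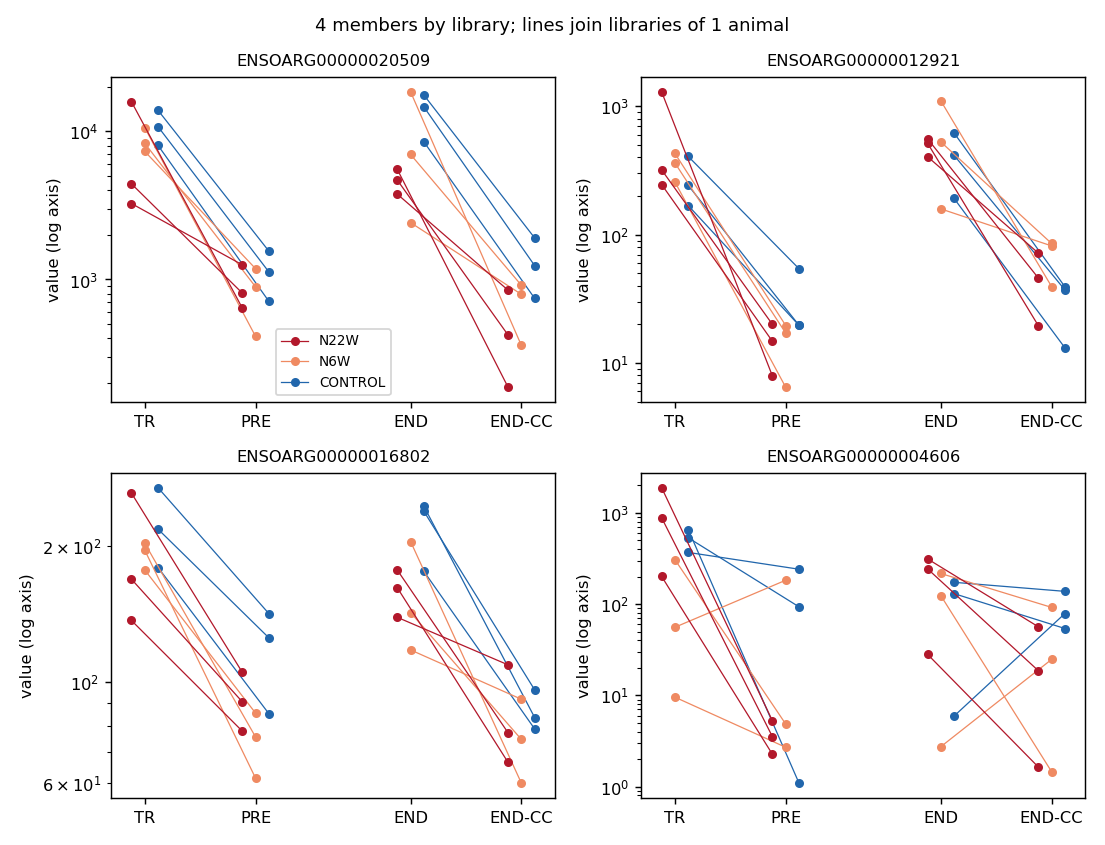
Values of 4 members (vertical, log axis, scaled by the authors) at TR and PRE and at END and END-CC; 1 point per library, lines join the libraries of 1 animal and colour gives the arm, and PRE and TR levels of N6W are not comparable with those of the other arms. ENSOARG00000020509 and ENSOARG00000012921 had no overlap between TR and PRE or between END and END-CC within an arm, while ENSOARG00000004606 went down in some animals.

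Agreement between animals divided the members. Of the 203, 105 were higher at TR than at PRE in all 9 animals, against 4.83% of the genes within the limits on level, and 119 were higher at END than at END-CC in all 9, against 8.71%. Both held for 69 members, or 34.0%, against 1.72%. Since the rule used these contrasts, nothing is read from these shares. A difference of at least 2-fold in every one of the 18 within-animal comparisons was found in 6 members. One of them, ENSOARG00000011542, was picked out after its values were seen and had the largest minimum, 1.50. Its values at TR were 58.4, 48.5 and 172.7 in N22W, 29.8, 35.9 and 60.4 in N6W, and 57.2, 47.2 and 43.5 in CONTROL. For PRE the values were 5.27, 5.87 and 2.26 in N22W, 5.39, 2.61 and 3.23 in N6W, and 5.46, 10.0 and 14.7 in CONTROL. At END its values were 59.3, 55.1 and 46.6 in N22W, 62.3, 30.1 and 127.2 in N6W, and 149.5, 45.6 and 69.9 in CONTROL. At END-CC they were 17.97, 12.3 and 2.66 in N22W, 9.34, 6.19 and 5.84 in N6W, and 15.2, 6.14 and 6.06 in CONTROL. Within each arm no TR value reached down to the PRE range and no END value to the END-CC range. At PRE 1 read had a value of 1.13 in animal 2915, 1.30 in 2908 and 1.62 in 2909, and at END-CC 0.888 in 2915. The lowest values at PRE and END-CC thus stand for few reads. The largest release change of this gene, 5.74 in animal 2915, started from such a value.

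The other 134 members were not higher in every animal in both contrasts. The spread over animals was wide: the SD of the release change had a median of 0.94 over members, against 0.33 over genes within the limits on level, and that of the side difference a median of 0.91 against 0.30. Members spread widely on the unoperated side too, with a median SD over the 9 END-CC libraries of 0.62 against 0.26. A gene could enter the set through very high values in 1 animal at TR or END, so a wide spread can be part of how the members were chosen. The members were also of lower level than the genes they are set against, with a median of 47.3 against 165. How far either bears on the spread was not tested.

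The animals carried the set unequally. Over release, the median change over members was 1.94, 1.03 and 1.66 in the N22W animals 2913, 2914 and 2915. It was 0.66, 1.16 and 2.21 in the N6W animals 2907, 2908 and 2909, and 1.65, 1.63 and 1.50 in the CONTROL animals 2901, 2902 and 2903. All 203 members were higher at TR in animal 2909 and 152 in animal 2907, and the other 7 animals had 173 to 202. The median over genes within the limits on level lay between -0.12 and 0.02 in every animal. For the side difference the medians over members were 0.90, 1.30 and 1.21 in N22W, 1.25, 0.56 and 2.65 in N6W, and 1.87, 1.47 and 1.75 in CONTROL, in the same order of animals. Animals 2908 and 2909, both of N6W, were thus the lowest and the highest of the 9, with 167 and 203 members higher on the operated side.

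**Figure D3:**
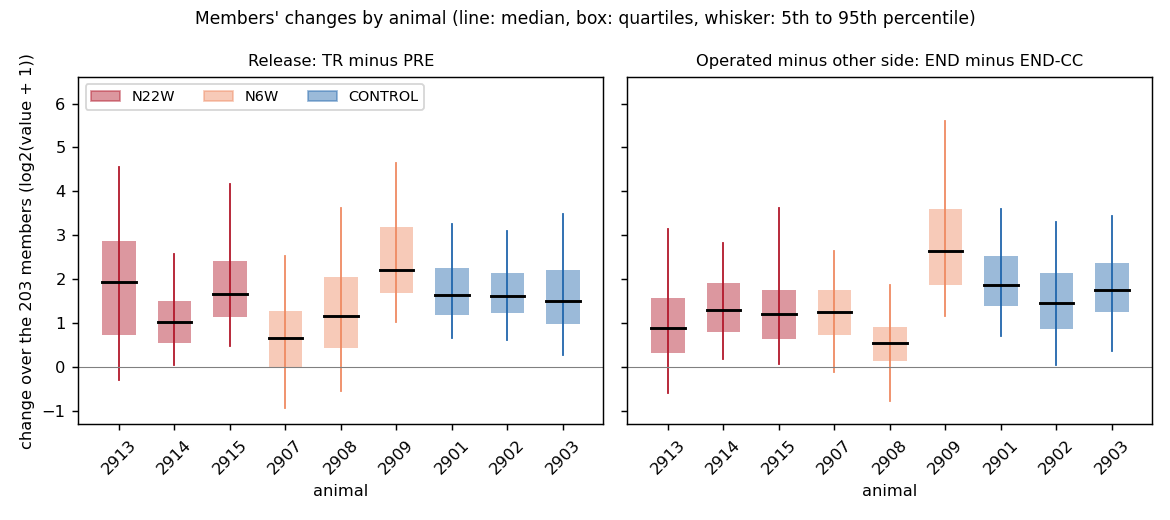
Change of the 203 members in each animal on the log2(value + 1) scale, release change at left and side difference at right; lines are medians, boxes quartiles, whiskers the 5th to 95th percentile, and colours the arms N22W, N6W and CONTROL. All 9 medians lie above 0 in both panels, with animal 2909 highest (2.21 and 2.65) and animal 2908 lowest for the side difference (0.56).

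Animal 2909 weighed on who belonged to the set. Without it 155 genes met the rule, 150 of them members, and without 2908 the count was 243. With both left out, an alternative added after the data were seen, 193 genes met the rule and 159 of them were members. With the N22W and CONTROL animals alone, also added afterwards, 244 genes met it and 170 were members. In every one of the 9 sets that leave out 1 animal, 135 members (66.5%) stayed in.

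The means of single arms bore the pattern to different extents. Both limits were met by the mean of the 3 N22W animals in 113 members, of the 3 N6W animals in 126 and of the 3 CONTROL animals in 168. All 3 arms met the release limit in 78 members, the side limit in 123 and both limits in 66. Both mean changes were above 0 in 201 members in N22W, 198 in N6W and 201 in CONTROL. The median release change over members was 1.54 in N22W, 1.33 in N6W and 1.58 in CONTROL, and the median side difference was 1.13, 1.48 and 1.71. A difference between arms does not by itself shift a mean over all 9 animals, and such differences were tested. They come from the values that chose the members, however, and the animals spread unequally. The choice can therefore still bear on the members' arm differences below.

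Release ran without drug in N6W and CONTROL and under nandrolone in N22W. The first question is whether the release change of the members differed with the drug. The PRE and TR libraries of N6W belong to the other library set, whose part in the pooled comparison was not tested. The release change of N22W minus that of CONTROL and N6W had a median of -0.00 over the members, with 101 members higher and 102 lower, and of -0.05 over all 16417 genes tested. No member reached a false discovery rate of 0.05 by limma (0 of 203), against 0.0548% of all genes tested. At an unadjusted p under 0.05 there were 17 members higher and 15 lower, 15.8% of the members against 7.98% of all genes. The members' deviations from group means had a mean pairwise r of 0.318, against 0.008 over genes within the limits on level. It was 0.516 in the N6W libraries and 0.164 in those of N22W and CONTROL. All 36 libraries entered the choice of members, so this r is given only as a reason for caution. Shares at an unadjusted p, here and below, thus do not count independent genes, and no excess is read from them. edgeR's quasi-likelihood test called 0 members, against 0.0548% of all genes. DESeq2 called 1, lower in N22W, against 0.219% of all genes. The 32 members at an unadjusted p became 17 without animal 2913, 51 without 2915 and 50 without 2909.

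ENSOARG00000012259 had the smallest p among members with a smaller release change in N22W. At TR it had 251.0, 360.3 and 790.1 in N22W, and 841.5, 637.4 and 1152 in N6W and 907.1, 877.2 and 877.8 in CONTROL. Its PRE values were 367.5, 306.6 and 287.0 in N22W, 170.8, 176.1 and 150.2 in N6W and 231.5, 295.3 and 209.9 in CONTROL. The release change was smaller in N22W by a log2 difference of -1.73 (SE 0.45, limma adjusted p = 0.234). At END this gene had 329.3, 317.7 and 303.3 in N22W, 714.7, 268.2 and 926.3 in N6W and 1492, 968.7 and 976.7 in CONTROL. ENSOARG00000007959 had the smallest p in the other direction, with a log2 difference of 2.12 (SE 0.60, limma adjusted p = 0.282). At TR it had 96.9, 81.5 and 141.9 in N22W against 34.0, 23.6 and 15.4 in CONTROL, and all 3 N22W libraries were above all 3 CONTROL libraries. The gene was picked by its p, so nothing is read from such a gap, here or for genes so picked below.

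Against CONTROL alone, the release change of N22W had a median difference of -0.20 over members (all genes -0.01), with 82 members higher and 121 lower. Without animal 2914 the median was 0.10. Again 0 members passed by limma, against 0.0% of all genes tested. At an unadjusted p under 0.05, 11 members were higher and 12 lower, against 6.64% of all genes, and without animal 2902 there were 15 in all. With only the libraries compared in the fit there were 49. edgeR called 0 members (0.067% of all genes) and DESeq2 called 0 (0.186%). The smallest p belonged to ENSOARG00000004619 on the lower side, with a log2 difference of -1.38 (SE 0.38, limma adjusted p = 0.356). Its release change was 0.40, 0.17 and 0.46 in N22W against 1.66, 1.37 and 2.12 in CONTROL, without overlap. On the higher side it was ENSOARG00000011750, at 4.20 (SE 1.25, limma adjusted p = 0.418). Its values at TR were 570.7, 452.8 and 439.2 in N22W against 101.1, 70.0 and 343.3 in CONTROL. At PRE they were 7.37, 306.6 and 11.3 in N22W against 303.5, 81.3 and 171.8 in CONTROL. The N22W values lay above those of CONTROL at TR, while the arms overlapped at PRE.

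N6W and CONTROL were both without drug over release. Their PRE and TR libraries belong to different library sets, so arm and library set cannot be told apart in this difference. It is therefore no measure of how far untreated arms of 3 animals part. The release change of N6W minus that of CONTROL had a median of -0.18 over members (all genes 0.08), with 88 members higher and 115 lower. The median was 0.19 without animal 2907 and -0.56 without animal 2909. Here too limma called 0 members, against 0.0% of all genes tested, with 5 higher and 24 lower at an unadjusted p under 0.05, against 7.46% of all genes. edgeR called 0 members (0.00609% of all genes) and DESeq2 called 1 (0.0846%). The number at an unadjusted p was 29 members, and it was 19 without animal 2903 and 56 without animal 2909. ENSOARG00000008212 had the smallest p, with a log2 difference of -3.02 (SE 0.59, limma adjusted p = 0.18). At TR it had 9.55, 19.8 and 29.2 in N6W, against 28.8, 17.0 and 27.5 at PRE, lower at TR in 1 of the 3 animals. In CONTROL it had 88.6, 59.0 and 219.2 at TR against 9.83, 7.03 and 57.7 at PRE. Without animal 2909 its limma adjusted p was 0.0277, and 4 members passed, against 0.353% of all genes in that fit. The smallest p on the higher side was that of ENSOARG00000007862, at 1.33 (SE 0.51, limma adjusted p = 0.554).

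The level at TR was compared between N22W and CONTROL, whose TR libraries belong to the same set. The median difference over members was -0.21 (all genes 0.01), with 80 members higher and 123 lower. None was called by limma (0 members), against 0.0244% of all genes tested. At an unadjusted p under 0.05 there were 6 higher and 23 lower, 14.3% of members against 3.84% of all genes. edgeR called 0 members, against 0.0244% of all genes. DESeq2 called 3, 1 higher and 2 lower, against 0.268% of the genes it tested, and gave no adjusted p to 1 member. ENSOARG00000014957 had the smallest p on the lower side, with TR values of 150.5, 182.9 and 180.8 in N22W against 298.2, 339.9 and 241.9 in CONTROL. The log2 difference was -0.76 (SE 0.17, limma adjusted p = 0.49), and the arms did not overlap. On the higher side it was again ENSOARG00000007959, with 2.12 (SE 0.37, limma adjusted p = 0.242). Without animal 2914 the median over members became 0.04, and the number at an unadjusted p was 17 without animal 2902 and 14 with no filter on low values.

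At the end of the experiment both nandrolone arms had received the drug. The side difference of N22W and N6W minus that of CONTROL had a median of -0.40 over members, against 0.00 over all genes, and 153 of 203 members were lower and 50 higher. Limma called 0 members, against 0.0% of all genes tested. At an unadjusted p under 0.05 all 18 members were lower and none higher (0), 8.87% of members against 4.59% of all genes. edgeR and DESeq2 each called 0 members, against 0.0% of all genes in both. The median moved to -0.73 without animal 2909, with 54 members at an unadjusted p under 0.05, and to -0.15 without animal 2908, with 9; without animal 2915, 29 members had such a p. ENSOARG00000021182 had the smallest p. At END it had 101.0, 94.8 and 86.4 in N22W, 161.6, 78.0 and 205.4 in N6W, and 277.9, 349.3 and 175.4 in CONTROL. At END-CC it had 107.8, 69.8 and 74.6 in N22W, 70.7, 58.2 and 67.1 in N6W, and 61.8, 109.3 and 36.4 in CONTROL. The log2 difference in side difference was -1.39 (SE 0.29, limma adjusted p = 0.665). On the higher side the smallest p was that of ENSOARG00000025174, at 1.11 (SE 0.57, limma adjusted p = 0.985).

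Between the nandrolone arms, the side difference of N22W minus that of N6W had a median of -0.31 over members (all genes 0.01), with 55 members higher and 148 lower. This sign rested on animal 2909: the median was 0.21 without it and -0.80 without animal 2908. With limma 0 members passed, against 0.0% of all genes tested, and 4 were higher and 4 lower at an unadjusted p under 0.05, against 3.67% of all genes. Those 8 became 5 without animal 2913, 14 without 2915 or 2907, 32 without 2908 and 17 without 2909. edgeR and DESeq2 called 0 members each, against 0.0% of all genes in both. ENSOARG00000016899 had -1.55 (SE 0.47, limma adjusted p = 0.999) and ENSOARG00000018173 had 2.90 (SE 1.01, limma adjusted p = 0.999), the smallest p in each direction. For ENSOARG00000018173 the END-CC values were 11.5, 12.3 and 1.78 in N22W against 117.4, 104.0 and 14.6 in N6W, while the END values overlapped.

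The levels on each side were also compared, between animals. At END the median difference between the nandrolone arms and CONTROL was -0.26 over members (all genes -0.01), with 71 members higher and 132 lower. By limma 0 members passed, against 0.0% of all genes tested. At an unadjusted p under 0.05 there were 10 members higher and 36 lower, 22.7% of members against 6.41% of all genes. In the END libraries, which also entered the choice, the members' deviations had a mean pairwise r of 0.496. These members are thus not counted as independent. edgeR called 0 members, against 0.0% of all genes. DESeq2 on the recovered reads called 16, of which 2 were higher and 14 lower, against 0.509% of the genes it tested. It gave no adjusted p to 7 of the 203 members. Without animal 2909 the median was -0.54 and 83 members had an unadjusted p under 0.05, and without 2908 the median was -0.05. All 6 nandrolone animals lay below all 3 CONTROL animals in 10 members, against 1.27% of genes within the limits on level, and above them in 8, against 1.86%.

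ENSOARG00000011962 had the smallest p among members lower at END under nandrolone. Its END values were 675.2, 726.4 and 655.9 in N22W and 285.4, 336.6 and 445.2 in N6W, against 792.5, 846.1 and 1141 in CONTROL. The 6 values of the nandrolone arms lay below the 3 of CONTROL, and those of N6W below those of N22W. The log2 difference was -0.90 (SE 0.16, limma adjusted p = 0.337), and DESeq2 gave an adjusted p of 0.00117. ENSOARG00000003188 was the first on the higher side, with 67.0, 44.8 and 67.6 in N22W and 72.4, 87.6 and 76.2 in N6W, against 29.9, 38.0 and 40.9 in CONTROL. Its log2 difference was 0.90 (SE 0.21, limma adjusted p = 0.395), again without overlap. At END-CC the same gene had 38.5, 27.9 and 39.1 in N22W and 32.0, 48.3 and 20.4 in N6W, against 9.51, 16.0 and 7.07 in CONTROL.

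On the unoperated side, END-CC, the median difference between the nandrolone arms and CONTROL was 0.03 over members (all genes 0.00), with 114 higher and 89 lower. By limma 0 members passed, against 0.0% of all genes tested. At an unadjusted p under 0.05 there were 23 higher and 4 lower, 13.3% of members against 7.78% of all genes, whereas at END the larger number was lower. edgeR called 0 members, against 0.0% of all genes. DESeq2 called 4, 3 higher and 1 lower, against 0.358% of the genes it tested, and gave no adjusted p to 13 of the 203 members. The median over members was -0.10 without animal 2903 and -0.06 without animal 2913. All 6 nandrolone animals lay above all 3 CONTROL animals in 9 members, against 1.79% of genes within the limits on level, and below them in 2, against 1.99%. ENSOARG00000003586 had 190.0, 136.2 and 127.9 in N22W and 97.4, 127.5 and 125.5 in N6W, against 70.4, 74.9 and 64.6 in CONTROL. That was a log2 difference of 0.90 (SE 0.17, limma adjusted p = 0.27). ENSOARG00000009670 was lower, with 5.13, 12.3 and 9.77 in N22W and 12, 13.6 and 5.84 in N6W, against 35.2, 44.2 and 33.3 in CONTROL. Its log2 difference was -1.91 (SE 0.35, limma adjusted p = 0.26). In both genes the nandrolone animals and the CONTROL animals did not overlap.

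**Figure D4:**
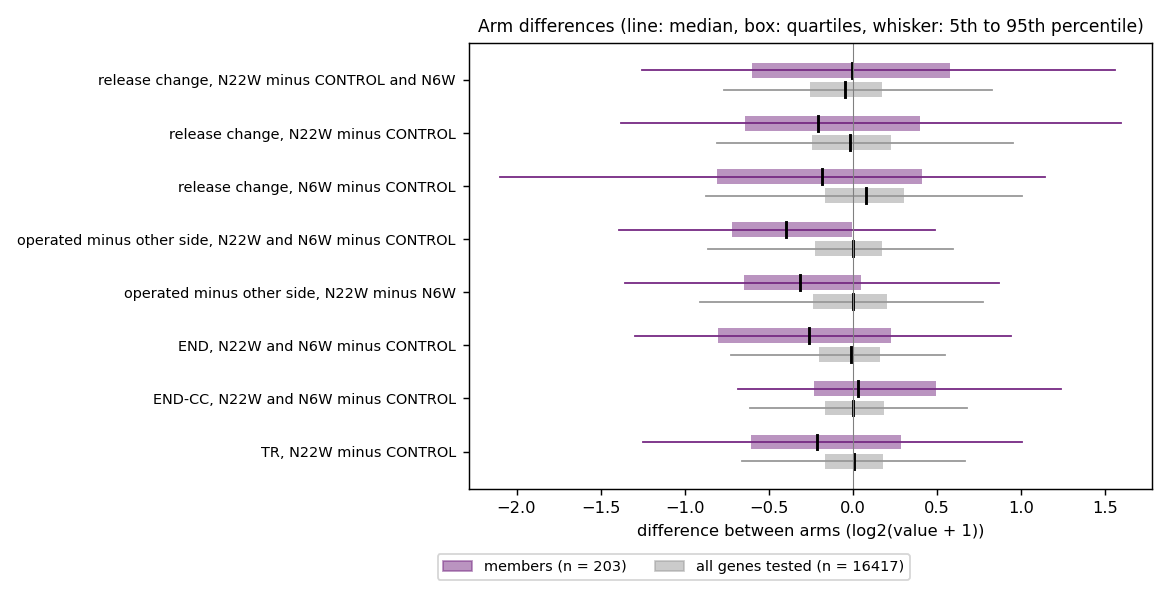
Differences between arms on the log2(value + 1) scale in the 8 comparisons, for the 203 members (purple, upper of each pair) and all 16417 genes tested (grey); lines are medians, boxes quartiles and whiskers the 5th to 95th percentile. The members' median is lowest for the side difference of the nandrolone arms minus CONTROL (-0.40), and the members spread more widely than all genes in each comparison.

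The course over repair could be followed within one library set in N6W, whose 3 animals went into repair undrugged and received nandrolone from then on. These differences share libraries with the choice of members and are given without a test. The median value over members at PRE was 30.6, 30 and 25.8 in animals 2907, 2908 and 2909. At TR it was 48.9, 65.3 and 122.8, and at END 63.1, 50.6 and 188.2. On the other side at the end it was 29.3, 32.2 and 24.8. The END-CC medians thus stood near those of PRE, while the operated side at END stood above both in each animal.

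Between TR and END the animals went different ways. The median change over members was 0.31 in animal 2907, with 142 members higher at END, and 0.47 in animal 2909, with 145 higher. In animal 2908 it was -0.56, with 148 members lower. The mean over the 3 animals had a median of 0.03 over members, with 104 higher and 99 lower, and lay between -1 and 1 in 174 of 203. In all 3 animals 43 members were higher at END than at TR, against 15.7% of genes within the limits on level, and 27 were lower, against 17.1%. END minus PRE had medians over members of 0.90, 0.66 and 2.88 in the 3 animals. Its mean was above 0 in all 203 members, and 138 were higher at END in each of the 3 animals, against 16.3% of genes within the limits on level. END-CC minus PRE, the unoperated side at the end against the operated side before release, had medians of -0.26, 0.06 and 0.04. In that comparison 96 members were higher and 107 lower in the mean, with 38 higher in all 3 animals (24.4% of genes within the limits on level) and 38 lower (23.9%). These compare the sides of the body as well as the occasions.

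**Figure D5:**
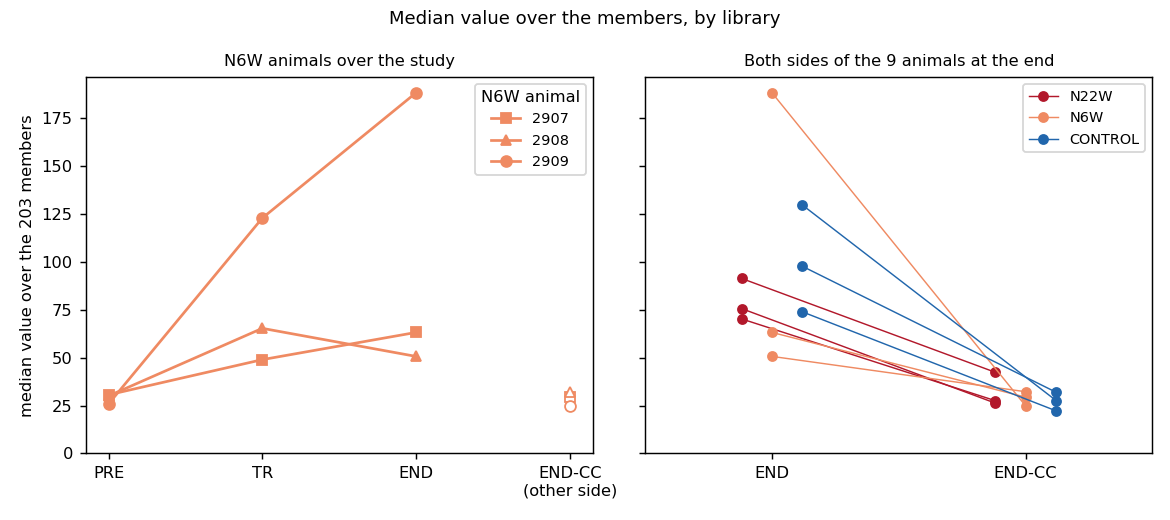
Median value over the 203 members in each library (vertical, scaled by the authors, from 0). Left, the N6W animals 2907, 2908 and 2909 at PRE, TR and END (filled) and END-CC (open); right, END against END-CC in all 9 animals, joined by animal and coloured by arm. Animal 2909 stands highest at END, at 188.2, and the END-CC libraries lie between 22.2 and 42.3.

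In some libraries, above all those of N6W at TR and END, most members lay on the same side of their group mean; in others they divided about evenly. The TR and END libraries of animal 2909 also weighed on the choice of the members. In the END library of animal 2909, 194 of 203 members lay above the mean of the 3 N6W libraries, with a median deviation of 1.08, and in that of animal 2908 only 7 did, with a median deviation of -0.86. At TR, 190 members lay above that mean in animal 2909 and 22 in animal 2907. In the END libraries of N22W and CONTROL the number above the group mean ran from 59 to 156. On the unoperated side the number was 167 in the N22W animal 2913, with a median deviation of 0.48, and 51 to 140 in the other N22W and CONTROL animals. Whether the animals differed in biopsy composition or RNA quality was not tested, since no values of either are used here.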

How the data were processed

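Each of the 36 deposited files held 1 value per gene. Per the submitters' processing notes, STAR 2.3.0e, R 3.0.2 and the sheep build Oar_v3.1 were used, with no role stated; how reads were counted, on which annotation and scaled is not stated there. The deposited signal values are read counts divided by 1 factor per library: low values were whole multiples of a step of 0.512 to 1.615, 100% of them within 0.1 read up to 100 reads, so read counts were recovered. On log2(value + 1) of the deposited values, limma 3.58.1 (R 4.3.3, mean-dependent prior) was fitted to 16417 genes with a median of at least 0.5. The release and side contrasts used all 36 libraries with animal as a block and a mean per arm and time. Contrasts at a single time used its 9 libraries. Adjustment was by Benjamini-Hochberg over all genes tested, at 0.05. edgeR 4.0.16 and DESeq2 1.42.0 on recovered reads were alternatives, with the other scalings, filters and left-out animals of the closing section. Only the main limma fits were also run on simulated data, made without library sets, and nothing about the members is read from that run.

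Pairing is by animal, from the labels' animal numbers and the design text. Deviations from group means correlated on average at 0.24 between libraries of 1 animal, above 0.1 in 50 of 54 pairs. The mean of -0.12 between animals of an arm adds nothing to this, since deviations sum to 0 within each group of 3 animals. No 2 libraries of a group agreed within sampling noise (mean chi-square per gene of at least 15.2). The arms hold 3 animals each. At a single time, p-values rest on the spread between animals within arms. In the release and side contrasts each animal's own level is removed. The spread that remains is pooled over all 36 libraries, so it is not the spread of the named change alone.

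The members and comparisons were chosen with earlier results of these data known. Genes named are those with the 2 largest mean changes in each choosing contrast, those nearest each limit (values alone are printed), the highest median, the smallest and largest SD of the release change, and the smallest p per direction in each tested comparison. ENSOARG00000011542 lies outside that rule and was chosen after its values were seen.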

Additional observations from a re-analysis of the deposited data

Results flagged for a closer look

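A single value stood far from the others of its kind. The side difference of ENSOARG00000004619 was 2.42 in the CONTROL animal 2902, while the other 8 animals had 0.56 to 1.41. The gap to the nearest animal was 0.545 of the whole range, above the critical value of 0.493 for 9 animals. It was found among 46 such sets of 9 animals, of which chance alone would single out about 1 in 20. In that animal the gene had 96.5 at END and 17.2 at END-CC.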

How the results depend on the processing

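The number of genes meeting the rule was 203 and stayed within 1.5 times that count under every alternative run. It was 211 with a pseudocount of 0.5, 231 without the demand of a value above 1 in all libraries, 221 with TMM scaling and 214 with the median over animals. Leaving out 1 animal at a time gave 155 to 253. Under limma 0 members passed in each of the 8 comparisons with a pseudocount of 0.5, no filter on low values or TMM scaling, and in the 6 comparisons refitted on only the libraries compared. With no replicate block the count was also 0 in the 5 comparisons that had one, while the genes called in all for the release change of N22W minus CONTROL and N6W were 1, against 9 with the block. Members at an unadjusted p under 0.05 numbered 21, 14, 21, 10 and 3 with no replicate block, against 32, 23, 29, 18 and 8 with it, in the order of the report. DESeq2 called 1 member for the release change of N22W minus CONTROL and N6W, against 0.219% of the genes it tested. It called 1 for that of N6W minus CONTROL (0.0846%). At END it called 16 members (0.509%), at END-CC 4 (0.358%) and at TR 3 (0.268%). At these occasions 7, 13 and 1 members had no adjusted p from DESeq2. Leaving out 1 animal at a time gave 0 to 1 members for the release change of N22W minus CONTROL and N6W (1 without animal 2907, against 0.0487% of all genes, and 1 without 2909, against 0.164%). It gave 0 to 4 for that of N6W minus CONTROL (4 without 2909, against 0.353%), and 0 in the other 6. No value named for a member reversed. The cause of these differences was not tested. With 3 animals per arm the median SE over members was 0.38 to 0.67 on the log2 scale, and the precision of members with few reads is further limited by counting error.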
